A study of Mus musculus with 82 samples.

Results

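The genes described here are 6 cytokines made by T cells: Ifng, Tnf, Il2, Il4, Il21 and Il10. They were taken by symbol, and each had a row in all 3 deposited count tables, which makes 6 of the 21823 genes that the tables share. Transgenic T cells with receptors for chicken ovalbumin were followed, of the CD8 lineage (OT-I) and of the CD4 lineage (OT-II). Both were transferred into wild-type mice and later recovered by cell sorting from spleen and lymph nodes that had been combined. Treatment was saline, plain ovalbumin (OVA, 5 µg) or a synthetically glycosylated ovalbumin (pGal-OVA, here pGal), and cells were collected 4 days later. The study asked, per its title, about glycosylated antigen as an immunotherapy, and the comparisons below ask how far the cytokine transcripts of the transferred cells differed between antigen forms, saline and cell types.

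Prophylactic mice were treated 1 day after they received the cells. Each of the 29 prophylactic libraries held cells pooled from 3 mice, and the labels name 2 batches. OT-I cells had 5 libraries per treatment, and OT-II cells had 5 with saline, 5 with pGal and 4 with OVA. In the therapeutic experiment all mice, the saline controls included, were immunized under the skin with ovalbumin in complete Freund's adjuvant (CFA+OVA) 1 day after the transfer and were treated a month later, with 1 mouse per library and 53 libraries. That timing is the design text's; the treatment protocol attached to the therapeutic libraries repeats the prophylactic timing. The strain is given as C57BL/6 for the prophylactic libraries and as that name with running numbers for the therapeutic ones, and no ages are given. Hosts were wild-type mice with T cells of their own, so host cells that passed the sort would add to any value. The amount of pGal is stated in a pair of ways, as 5 µg and as the same molar amount of antigen, so the antigen amounts in the OVA and pGal groups may differ. Whether OT-I and OT-II libraries with the same number came from the same mice is not stated in the labels.

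Total counts ran from 21.2 to 68.2 M per library. The labelled cell type was checked by its coreceptor, Cd4 for helper and Cd8a for cytotoxic T cells. The prophylactic labels held: OT-I libraries had Cd8a at 774 to 1310 counts per M (CPM) and OT-II libraries had Cd4 at 238 to 1160 CPM. In 11 of 53 therapeutic libraries the coreceptors went against the label. The 6 labelled OT-I (OVA 6 and 8, pGal 5 and 7, saline 3 and 6) had Cd4 at 409 to 1460 CPM and Cd8a at 0.656 to 2.69 CPM. The 5 labelled OT-II (OVA 6 and 8, pGal 5 and 7, saline 3) had Cd8a at 836 to 1390 CPM and Cd4 at 1.96 to 4.28 CPM. These 11 were left out of the main tests, which leaves 8 OVA, 8 pGal and 6 saline OT-I libraries and 6 OVA, 8 pGal and 6 saline OT-II libraries. The therapeutic calls, and the larger differences that missed the threshold, are also given with all 53 as labelled. Some prophylactic libraries also held transcripts typical of other cells: 2 OT-I libraries had Cd4 at 161 and 201 CPM, 1 OT-II library had Cd8a at 113 CPM, and Cd79a, a B cell receptor subunit, reached 1330 CPM in that same library. Matching therapeutic libraries held such transcripts too. Cd79a was at 108 to 117 CPM in OT-II OVA 2, pGal 2, 3 and 8 and saline 7. Group medians of summed B cell markers were 376.5 to 456 CPM in therapeutic and 58.1 to 106 CPM in prophylactic cells.

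Cytokines are the secreted signals by which T cells direct other cells. Interferon gamma (Ifng) and tumour necrosis factor (Tnf) are effector cytokines of CD8 cells and of type 1 helper CD4 cells, and act on macrophages and target cells. Interleukin 2 (Il2) is a growth factor for T cells, made soon after the antigen receptor is engaged. Interleukin 4 (Il4) and interleukin 21 (Il21) are made by helper CD4 cells and act largely on B cells, and interleukin 10 (Il10) restrains inflammation. Their genes are controlled by factors that the antigen receptor activates, NFAT among them, and by lineage factors such as T-bet (Tbx21).

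The sequences directly before the transcription start are shown for Il2, Ifng and Il4, because these were the members with a called difference between treatments. Each is the 250 bases before the start, from RefSeq's GRCm38.p6 annotation, written 5′ to 3′ on the gene's own strand. Capitals mark GGAAA, or TTTCC, its reverse complement, the core bound by NFAT.
Ifng, chr10:118440796-118441045, plus strand: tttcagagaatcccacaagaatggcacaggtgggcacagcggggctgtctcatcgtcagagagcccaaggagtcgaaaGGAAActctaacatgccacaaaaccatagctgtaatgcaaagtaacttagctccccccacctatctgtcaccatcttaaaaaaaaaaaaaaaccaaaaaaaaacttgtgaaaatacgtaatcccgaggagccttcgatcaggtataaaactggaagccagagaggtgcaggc
Il2, chr3:37125955-37126204, minus strand: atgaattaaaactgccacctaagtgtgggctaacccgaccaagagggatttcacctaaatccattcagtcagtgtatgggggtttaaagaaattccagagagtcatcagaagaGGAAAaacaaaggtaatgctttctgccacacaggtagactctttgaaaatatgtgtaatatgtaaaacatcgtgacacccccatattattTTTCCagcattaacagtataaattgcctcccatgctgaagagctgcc
Il4, chr11:53618666-53618915, minus strand: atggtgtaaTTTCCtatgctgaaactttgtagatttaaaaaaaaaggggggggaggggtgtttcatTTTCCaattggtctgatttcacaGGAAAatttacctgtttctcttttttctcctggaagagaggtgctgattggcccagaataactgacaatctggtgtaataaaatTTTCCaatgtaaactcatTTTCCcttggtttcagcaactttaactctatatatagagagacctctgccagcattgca
The core was found 1 time before Ifng, 2 times before Il2 and 5 times before Il4, and 3 times each before Tnf and Il21. Il4 has another window in that table, at chr11:53617339-53617588 on the minus strand, which holds 0 cores; the window shown is the one nearest the start of the gene model used here. Among all 32851 windows of 250 bases in that table, 55.6% hold at least 1 core, 21.4% hold 2 or more and 0.39% hold 5 or more. The AP-1 letters TGANTCA were in none of the members' windows and in 6.75% of all windows. TATAA stood 1 time each before Ifng, Tnf and Il2, and in 22.8% of all windows. Both strands were searched, no NFAT core overlapped a TATAA match in these windows, and a match is a description of the letters alone. Of the 6 symbols, 5 matched this table.

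Ifng (ENSMUSG00000055170) lies on the plus strand at chr10:118441046-118445892 and Tnf (ENSMUSG00000024401) on the minus strand at chr17:35199381-35202007, 1158 bases from Lta, which encodes lymphotoxin alpha (GRCm38, GENCODE M21). Il2 (ENSMUSG00000027720) lies on the minus strand at chr3:37120523-37125959 and Il21 (ENSMUSG00000027718) on the minus strand at chr3:37222759-37232636. Il4 (ENSMUSG00000000869) is on the minus strand at chr11:53602982-53618669 and Il10 (ENSMUSG00000016529) on the plus strand at chr1:131019845-131024974. Il2 overlaps the gene Adad1 on the other strand. Adad1 had 0 to 45 counts over the 71 libraries used, and 0 in all prophylactic saline libraries.

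The 6 cytokines differed widely in level between experiments and cell types. Group means leave out the 11 therapeutic libraries whose coreceptors went against the label. In the therapeutic experiment, the group means of Ifng stood between 152 and 275 CPM in OT-I cells and between 14.5 and 71.9 CPM in OT-II cells. In the prophylactic experiment the highest group mean was 15.3 CPM. Il21 had group means of 26.7 to 84.2 CPM in therapeutic OT-II cells and no group mean above 0.978 CPM elsewhere. Il4 stood likewise at 3.85 to 20.2 CPM in therapeutic OT-II cells, and at 0.393 CPM or less in the other groups. The experiments were not tested against each other, since immunization, the handling of the cells and the table cannot be told apart.

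The order of the groups held few gaps wider than the spread. For Ifng, the 3 therapeutic OT-I groups came first at 275 ± 91.8 (SD, n = 6) with saline, 213 ± 125 (n = 8) with OVA and 152 ± 66.7 CPM (n = 8) with pGal. Neighbours among these 3 lay within their SD, whereas the step down to therapeutic OT-II saline, at 71.9 ± 57.6 CPM (n = 6), was wider than it. For Tnf, therapeutic OT-II saline came first at 103 ± 23.1 CPM (n = 6) and stood above the next group, OT-II pGal at 69.5 ± 28.5 CPM (n = 8), by more than the SD. Prophylactic OT-I cells were at the low end for Tnf, with 10.6 ± 2.62 CPM (n = 5) under saline. For Il2, therapeutic OT-II OVA led at 10.9 ± 3.58 CPM (n = 6) and prophylactic OT-I saline came last at 0.0967 ± 0.0965 CPM (n = 5). Il10 had no neighbours in the order that differed beyond their SD, and its group means ran from 0.0115 to 0.977 CPM. In bulk libraries, fewer producing cells and less RNA per cell cannot be told apart.

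**Figure D1:**
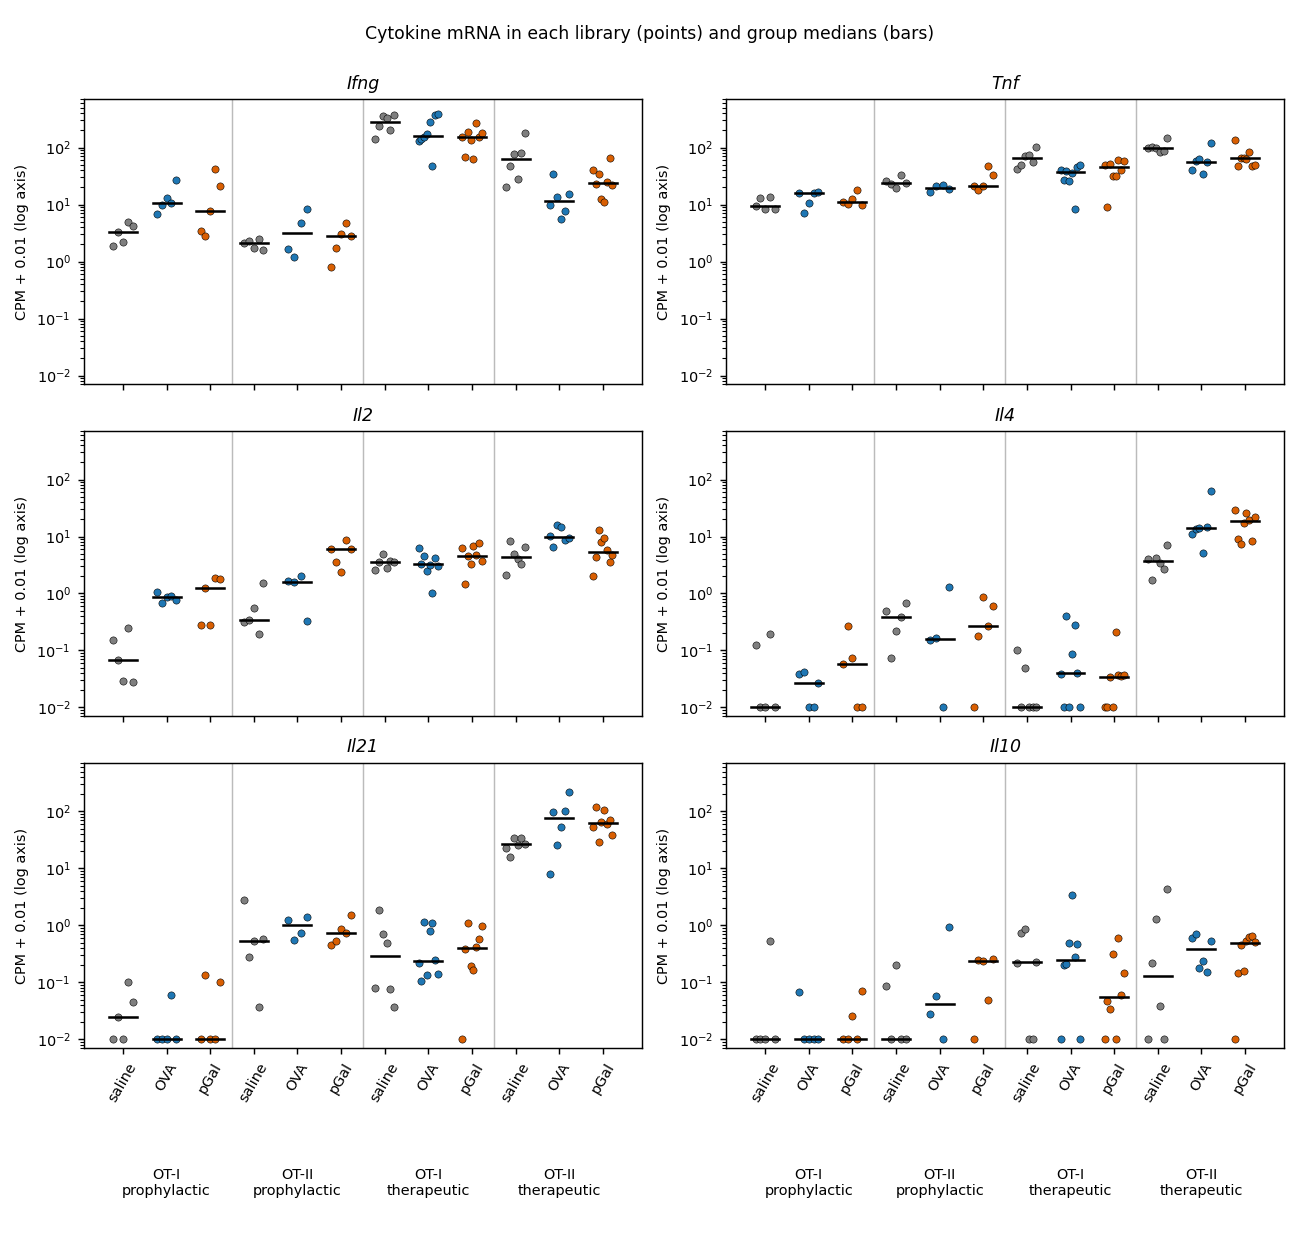
Each panel plots a cytokine's level in CPM (with 0.01 added, log axis) in the 12 groups; points are libraries, bars are group medians, and colours give the treatment. Only the 71 libraries used are plotted, without the 11 whose coreceptors went against the label. Among the 71, Il4 and Il21 stand above 1 CPM in all therapeutic OT-II libraries and below 2 CPM in all OT-I libraries.

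Set per kilobase of transcript, which allows levels of different genes to be compared, the leading cytokine differed between groups. In prophylactic OT-I cells under saline and in all prophylactic OT-II groups Tnf came first. In prophylactic OT-I cells the mean of Ifng led under OVA, with 11.3 CPM per kb against 8.45 for Tnf, and under pGal, with 12.7 against 8. That order did not hold for medians, where Tnf led. In CPM they were 10.8 for Ifng and 15.7 for Tnf under OVA, and 7.62 and 11 under pGal. In batch 1 with pGal, mean Ifng was 4.62 CPM and mean Tnf 11.2 CPM. Therapeutic OT-I cells had Ifng first in each group, at 228 CPM per kb with saline, 176 with OVA and 126 with pGal. In therapeutic OT-II cells the saline group had Tnf at 66.5, Ifng at 59.5 and Il21 at 14.8 CPM per kb. The OVA group had Il21 at 46.8, Tnf at 40.3, Il4 at 35.1 and Ifng at 12 CPM per kb. The pGal group had Tnf at 44.8, Il21 at 37.8, Il4 at 29.9 and Ifng at 24.3 CPM per kb.

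OT-II and OT-I cells were then compared under each treatment, with edgeR's quasi-likelihood test over all genes and a call at a Benjamini-Hochberg adjusted p under 0.05. Among prophylactic cells, all genes were called at 13.9% under OVA, 19.7% under pGal and 18.1% under saline, and the members called were 2, 4 and 3 of 6. Among therapeutic cells the shares were 11% under OVA, 12.2% under pGal and 9% under saline, and the members called were 4, 3 and 3 of 6. Ifng was lower in OT-II than in OT-I cells in 5 of these 6 comparisons, and Il21 was higher in all 6. Il4 was higher in OT-II cells in the 3 therapeutic comparisons, Tnf in 2 prophylactic ones, and Il2 in 3 comparisons.

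Ifng, the effector cytokine, had its widest fitted difference between cell types in therapeutic cells under OVA. There it ran from 46.8 through a median of 162 to 395 CPM in OT-I libraries and from 5.65 through 11.7 to 34.9 CPM in OT-II libraries. The groups did not overlap. The log2 fold change of OT-II against OT-I was -3.87 (SE 0.509, adjusted p = 1.78e-07). Under pGal it was -2.36 (SE 0.422, adjusted p = 5.04e-05) and under saline -1.91 (SE 0.479, adjusted p = 0.0057), with overlapping groups in both. In prophylactic cells it was -2.13 (SE 0.499, adjusted p = 0.0046) under OVA and -2.16 (SE 0.462, adjusted p = 0.0013) under pGal. Under saline it was -0.5 (SE 0.442, adjusted p = 0.501), and the means were 2.03 CPM in OT-II and 3.29 CPM in OT-I cells.

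Tnf, which acts through receptors found on most cells, went the other way in prophylactic cells. Its OT-II against OT-I log2 fold change was 1.25 (SE 0.214, adjusted p = 0.000122) under saline and 1.17 (SE 0.214, adjusted p = 0.000248) under pGal, and in neither did the groups overlap. Under OVA it was 0.59 (SE 0.223, adjusted p = 0.0797), again with no overlap; DESeq2 gave an adjusted p of 0.0457, and the value was 0.83 (adjusted p = 0.027) without the libraries with 100 CPM or more of the other coreceptor. In therapeutic cells Tnf differed by 0.87 (adjusted p = 0.0682) under OVA, 0.75 (adjusted p = 0.0907) under pGal and 0.66 (adjusted p = 0.268) under saline, none called. A block on the replicate number called it under OVA (1.07, adjusted p = 0.0166) and pGal (0.82, adjusted p = 0.0286), whereas DESeq2 did not.

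Il2, the growth factor, was higher in prophylactic OT-II than OT-I cells by a log2 of 2.38 (SE 0.635, adjusted p = 0.00835) under pGal and 2.51 (SE 0.668, adjusted p = 0.00884) under saline. The OT-I saline libraries held 1 to 16 Il2 counts each, so the size of the saline value is limited by counting. Under OVA the difference was 0.72 (SE 0.643, adjusted p = 0.489). In therapeutic cells it was called under OVA alone, at 1.63 (SE 0.378, adjusted p = 0.00187), against 0.41 (adjusted p = 0.543) under pGal and 0.47 (adjusted p = 0.604) under saline.

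The helper cytokines Il4 and Il21 were near the limit of counting in OT-I cells. Il4 had 0 counts in 7 of 15 prophylactic and 10 of 22 therapeutic OT-I libraries, and Il21 in 9 of 15 and 1 of 22. A count of 0 still allows up to 3 counts, which is 0.044 to 0.0896 CPM in prophylactic OT-I libraries. Summed over therapeutic saline libraries, Il4 had 911 counts in OT-II cells and 5 in OT-I cells, a ratio per count of 191 (exact 95% interval 81.4 to 588, counting error only). Summed over prophylactic OVA libraries, Il21 had 186 counts in OT-II cells and 3 in OT-I cells, a ratio of 73.2 (24.6 to 358). PCR copies are not independent molecules, so these intervals are narrower than the true error.

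In therapeutic cells the fitted differences of these cytokines were larger than those of the other members. Il4 was higher in therapeutic OT-II cells by a log2 of 7.55 (adjusted p = 1.99e-09) under OVA, 8.64 (adjusted p = 2.9e-10) under pGal and 7.37 (adjusted p = 5.99e-07) under saline. Il21 was higher by 7.41 (adjusted p = 4.25e-10), 7.19 (adjusted p = 5.32e-10) and 5.66 (adjusted p = 1.16e-06) in the same order. Within each treatment no OT-I library reached the lowest OT-II library for either gene. In prophylactic cells Il21 was higher in OT-II by 6.13 (SE 1.31, adjusted p = 0.00209) under OVA, 4.17 (SE 1.13, adjusted p = 0.00917) under pGal and 5.04 (SE 1.19, adjusted p = 0.00344) under saline. Single libraries moved the size of these values: OVA gave 8.52 without OT-I batch 2 OVA 1, pGal gave 5.52 without OT-I batch 1 pGal 2, and saline gave 3.75 without OT-II batch 1 saline 1 and 5.88 without OT-I batch 2 saline 1. Il21 remained called in each. Il4 was higher by 4.4 (SE 1.55, adjusted p = 0.0582) under OVA and did not pass edgeR's threshold in any prophylactic comparison, while DESeq2 gave an adjusted p of 0.0285 under OVA. With OT-I counts this low, fitted values depend on the small count the model adds.

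Il10 was called in no comparison of the cell types. Its log2 differences lay between -0.68 (therapeutic OVA, adjusted p = 0.793) and 3.65 (prophylactic OVA, SE 2, adjusted p = 0.229).

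**Figure D2:**
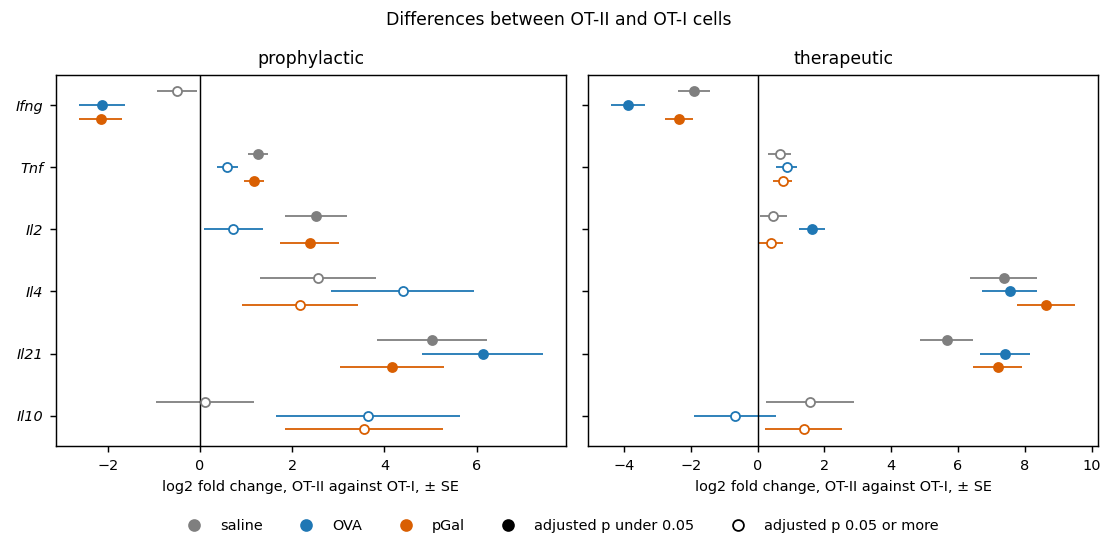
Log2 fold change of OT-II against OT-I cells (± SE) for each cytokine under each treatment in both experiments; filled points have an adjusted p under 0.05. Ifng points lie below 0 in each comparison and Il21 points lie above it.

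The prophylactic values were also taken within each batch. Ifng under OVA differed by -2.8 (adjusted p = 0.00472) in batch 1 and -1.49 (adjusted p = 0.272) in batch 2, and under pGal by -1.27 (adjusted p = 0.0596) and -3.04 (adjusted p = 0.027). Tnf differed by 0.9 (adjusted p = 0.0153) and 1.52 (adjusted p = 0.0587) under pGal, and by 1.15 (adjusted p = 0.00398) and 1.38 (adjusted p = 0.104) under saline. Il2 differed by 2.76 (adjusted p = 0.00726) and 2.0 (adjusted p = 0.459) under pGal, and by 2.37 (adjusted p = 0.0297) and 2.68 (adjusted p = 0.382) under saline. Il21 differed by 8.49 (adjusted p = 0.0143) and 5.29 (adjusted p = 0.276) under OVA, 3.91 (adjusted p = 0.0399) and 4.63 (adjusted p = 0.242) under pGal, and 7.25 (adjusted p = 0.00518) and 2.17 (adjusted p = 0.61) under saline. Each kept its direction in both batches, and batch 2 has 2 libraries per group.

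With all 53 therapeutic libraries as labelled, none of the therapeutic calls between cell types remained. Ifng under OVA was then -1.9 (adjusted p = 0.697), Il4 2.07 (adjusted p = 0.746), Il21 1.53 (adjusted p = 0.794) and Il2 0.82 (adjusted p = 0.697). Under pGal Ifng was -1.08 (adjusted p = 0.565), Il4 1.11 (adjusted p = 0.795) and Il21 2.39 (adjusted p = 0.529). Under saline they were -1.29 (adjusted p = 0.725), 2.21 (adjusted p = 0.806) and 1.73 (adjusted p = 0.846). The 6 libraries labelled OT-I whose coreceptors are those of CD4 cells had Il4 at 1.67 to 50.2 CPM (median 13) and Il21 at 14.9 to 142 CPM (median 49.2). The 5 labelled OT-II with the coreceptors of CD8 cells had Ifng at 27.5 to 327 CPM (median 189), and Il4 at 0 to 0.596 CPM. The coreceptors alone chose these libraries.

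In prophylactic OT-I cells, Ifng and Il2 rose with either form of the antigen. These were 2 of the 3 members tested in each comparison with saline, where 5.39% of all genes were called for OVA and 3.35% for pGal. Il4, Il21 and Il10 were too low to be tested there, and without the filter on low counts none of these 3 was called. Both comparisons use the same 5 saline libraries.

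Ifng in prophylactic OT-I cells given saline stood at 1.87, 3.26 and 2.23 CPM in batch 1 and at 4.98 and 4.13 CPM in batch 2. With OVA it stood at 6.91, 10 and 13 CPM in batch 1 and at 10.8 and 27.2 CPM in batch 2. With pGal it stood at 3.44, 2.79 and 7.62 CPM in batch 1 and at 41.3 and 21.5 CPM in batch 2. All OVA libraries were above all saline libraries, whereas with pGal the 2 of batch 2 were far above saline and 2 of the 3 of batch 1 lay within the saline range. The log2 fold change against saline was 2.05 (SE 0.426, adjusted p = 0.0109) for OVA and 1.77 (SE 0.434, adjusted p = 0.0385) for pGal. Within the batches it was 2.03 (adjusted p = 0.0121) and 2.07 (adjusted p = 0.181) for OVA, and 0.93 (adjusted p = 0.577) and 2.78 (adjusted p = 0.0518) for pGal. Over the 15 fits without a library the pGal value for Ifng was 1.37 to 2.03, and its call was lost in 7, with an adjusted p of up to 0.127: without batch 1 pGal 3, saline 1 and saline 3, or batch 2 pGal 1, pGal 2, saline 1 and saline 2. It was also lost without the libraries rich in Cd79a (1.67, adjusted p = 0.111).

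Il2 in the same OT-I cells given saline was at 0.145, 0.0593 and 0.0187 CPM in batch 1 and at 0.242 and 0.0179 CPM in batch 2. With OVA it was at 1.06, 0.658 and 0.875 CPM in batch 1 and at 0.906 and 0.763 CPM in batch 2. With pGal it was at 0.275, 1.25 and 0.271 CPM in batch 1 and at 1.89 and 1.81 CPM in batch 2. No antigen library of either kind fell within the saline range, although the lowest 2 with pGal lay close to its top. The saline libraries held 1 to 16 Il2 counts each, so the size of a rise over them is limited by counting. Il2 rose by a log2 of 3.21 (SE 0.693, adjusted p = 0.013) with OVA and of 3.35 (SE 0.694, adjusted p = 0.0181) with pGal. Within batches it was 3.49 (adjusted p = 0.0327) and 2.66 (adjusted p = 0.357) for OVA, and 2.96 (adjusted p = 0.294) and 3.79 (adjusted p = 0.145) for pGal. The batch 1 pGal library at 1.25 CPM is the OT-I library with the highest Cd4, at 201 CPM. Leaving out the 2 OT-I libraries with Cd4 at 100 CPM or more gave 2.99 (adjusted p = 0.0597), and the pGal call for Il2 was also lost without batch 1 saline 3, batch 2 pGal 1 or batch 2 pGal 2, with an adjusted p of up to 0.0583.

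Tnf did not pass the test in OT-I cells of this experiment. It lay at 8.28 to 13.8 CPM with saline, 6.99 to 16.6 CPM with OVA and 9.97 to 18.2 CPM with pGal, and these ranges overlapped.

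In prophylactic OT-II cells Il2 alone of the 6 tested members rose, with pGal against saline, where 11.7% of all genes were called. With saline it stood at 0.304, 0.338 and 0.55 CPM in batch 1 and at 0.188 and 1.52 CPM in batch 2. With pGal it stood at 5.95, 3.6 and 2.37 CPM in batch 1 and at 8.65 and 6.06 CPM in batch 2. With OVA it stood at 1.63 and 1.59 CPM in batch 1 and at 2.05 and 0.318 CPM in batch 2. Every pGal library was above every saline and every OVA library, and the OVA library at 0.318 CPM is the batch 2 library rich in Cd79a and Cd8a. The log2 fold change of pGal against saline was 3.23 (SE 0.635, adjusted p = 0.00531), with 3.33 (adjusted p = 0.00498) in batch 1 and 3.1 (adjusted p = 0.397) in batch 2. Without the libraries rich in Cd79a it was 3.11 (adjusted p = 0.00058), and without batch 2 saline 2, the saline library at 1.52 CPM, it was 3.91.

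For OVA against saline, where 0.163% of all genes were called, no member passed, and Il2 differed by 1.36 (SE 0.627, adjusted p = 0.677). It was the only member there with an unadjusted p under 0.05, against 1034 of 14128 genes, and DESeq2 called 0 members. Ifng in OT-II cells was between 1.6 and 2.44 CPM with saline, 1.18 and 8.44 CPM with OVA and 0.794 and 4.78 CPM with pGal. Tnf lay at 19.7 to 33.3 CPM, 16.6 to 22.1 CPM and 18.4 to 47.6 CPM in the same order. The remaining 3 members overlapped between treatments as well, with Il4 at up to 1.27 CPM, Il21 at up to 2.76 CPM and Il10 at up to 0.925 CPM.

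**Figure D3:**
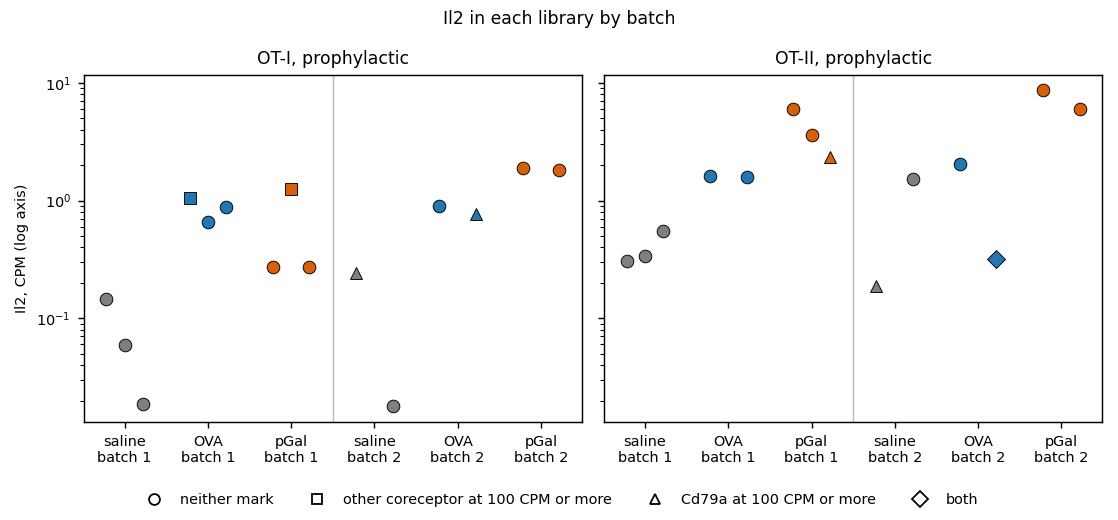
Il2 in CPM (log axis) in prophylactic libraries by cell type, treatment and batch; squares have the other coreceptor at 100 CPM or more, triangles have Cd79a at 100 CPM or more, and a diamond has both. All OT-II libraries with pGal, at 2.37 to 8.65 CPM, lie above all others of that cell type.

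The direct comparison of the antigen forms in prophylactic cells gave no call among the members. In OT-II cells, where 1.87% of all genes were called, Il2 was higher with pGal than with OVA by a log2 of 1.87 (SE 0.651, adjusted p = 0.176), the groups did not overlap, and DESeq2 gave an adjusted p of 0.0357. Tnf differed by 0.51 (SE 0.193, adjusted p = 0.215) with overlapping groups. These were the 2 members with an unadjusted p under 0.05, against 2102 of 14128 genes, and DESeq2 called 1 member. In OT-I cells 0 genes were called (0%) with 420 at an unadjusted p under 0.05 and 1 by DESeq2, and no member had an unadjusted p under 0.05. Ifng there differed by -0.29 (SE 0.42, adjusted p = 1) although its mean was 15.3 CPM with pGal and 13.6 CPM with OVA: the fit weighs the batches on a log scale, and batch 1 was lower with pGal. These SEs leave room for differences of either sign.

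In therapeutic OT-II cells the cytokines moved in opposite directions when OVA was compared with saline: Ifng fell and Il4 rose. They were 2 of 6 members called, against 1.54% of all genes. An unadjusted p under 0.05 was found for 5 of 6 members and for 2214 of 14244 genes. Saline here means mice that had been immunized and received no further antigen.

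Ifng ran from 20.6 through a median of 62.5 to 178 CPM in the 6 saline libraries and from 5.65 through 11.7 to 34.9 CPM in the 6 OVA libraries. With pGal it ran from 11.1 through 24.1 to 65.7 CPM in 8 libraries. All 6 OVA libraries were below the saline mean, and the ranges overlapped. The log2 fold change of OVA against saline was -2.32 (SE 0.517, adjusted p = 0.0239). For pGal against saline, where 0.00702% of all genes were called, it was -1.3 (SE 0.458, adjusted p = 0.353). The OVA call was lost without any of OVA 1, 3, 4, 5 or 7, with an adjusted p of up to 0.0846. It was also lost without saline 7 (-1.79, adjusted p = 0.081) and with all libraries as labelled (-0.92, adjusted p = 0.596). A block on the replicate number gave -2.17 (adjusted p = 0.0621). The call held with DESeq2 (-2.35, adjusted p = 0.000204). Without the libraries rich in Cd79a, which include saline 7 and OVA 2, it held as well (-2.27, adjusted p = 0.013).

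Saline 7, the library at the top of that range, also had the highest Ccl5 of the matching OT-II libraries, at 296 CPM against a saline median of 22 CPM. The summed level of the 7 markers of NK cells, another source of Ifng, was 111 CPM in it. Over the groups, that sum was 16.7 to 111 CPM with saline (median 25.4), 9.96 to 27.5 CPM with OVA (median 16.3) and 25.8 to 59.3 CPM with pGal (median 36.7). None of the 7 was called with OVA against saline, and their median log2 was -1.38 against -0.07 for all genes. The 4 defining genes among them, Ncr1, Klrb1c, Klra8 and Klre1, summed to 1.94 to 26.5 CPM with saline (median 8.82) and 3.83 to 14 CPM with OVA (median 8.92). The 26.5 CPM was that of saline 7, and the next saline library, saline 6, was at 10.5 CPM. The part of such cells in the Ifng result was not tested.

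Il4, a cytokine of helper cells that drives B cells toward certain antibody classes, ran from 1.74 through 3.73 to 6.95 CPM with saline. With OVA it ran from 5.11 through 13.9 to 62.7 CPM and with pGal from 7.24 through 18.4 to 29.3 CPM. All pGal libraries were above all saline libraries, and all OVA libraries were above the saline mean. The log2 fold change was 2.38 (SE 0.516, adjusted p = 0.021) for OVA and 2.17 (SE 0.494, adjusted p = 0.0938) for pGal against saline, and DESeq2 gave an adjusted p of 0.00134 for the latter. Without OVA 7, the library at 62.7 CPM, the OVA value was 1.59 (adjusted p = 0.0837), and with all libraries as labelled it was 2.2 (adjusted p = 0.343).

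Il21, which supports B cells and follicular helper cells, had higher medians with either antigen than with saline without passing the test. It was at 16.1 to 34.4 CPM (median 26.4) with saline, 7.97 to 217 CPM (median 75.8) with OVA and 29.5 to 120 CPM (median 62.1) with pGal. The OVA libraries lay on both sides of the saline range. The log2 values against saline were 1.65 (SE 0.488, adjusted p = 0.0885) for OVA and 1.34 (SE 0.463, adjusted p = 0.339) for pGal. DESeq2 gave an adjusted p of 0.0157 for OVA, and without OVA 1 edgeR's value was 1.89 (adjusted p = 0.0278). With all libraries as labelled the OVA value was 1.47 (adjusted p = 0.559).

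Il2 differed by 1.18 (SE 0.415, adjusted p = 0.162) with OVA against saline, at 6.64 to 15.7 CPM against 2.07 to 8.25 CPM, and all 6 OVA libraries were above the saline mean. Tnf was at 85 to 148 CPM (median 99.2) with saline and 33.9 to 123 CPM (median 57) with OVA, a log2 of -0.74 (SE 0.288, adjusted p = 0.214). For pGal against saline Tnf differed by -0.57 (SE 0.266, adjusted p = 0.541) and Il2 by 0.4 (SE 0.387, adjusted p = 0.798). Neither gene was called after adjustment over all genes, while edgeR's unadjusted p for OVA against saline was 0.00913 for Il2 and 0.0174 for Tnf. For pGal against saline 0 members were called, 4 had an unadjusted p under 0.05 (Ifng, Tnf, Il4 and Il21), and DESeq2 called 1. Of all 14244 genes tested there, 1280 had an unadjusted p under 0.05. With all libraries as labelled, OVA against saline gave 0.99 (adjusted p = 0.383) for Il2 and -0.85 (adjusted p = 0.34) for Tnf. In the same way pGal against saline gave -0.62 (adjusted p = 0.965) for Ifng, 2.08 (adjusted p = 0.833) for Il4 and 1.25 (adjusted p = 0.928) for Il21.

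**Figure D4:**
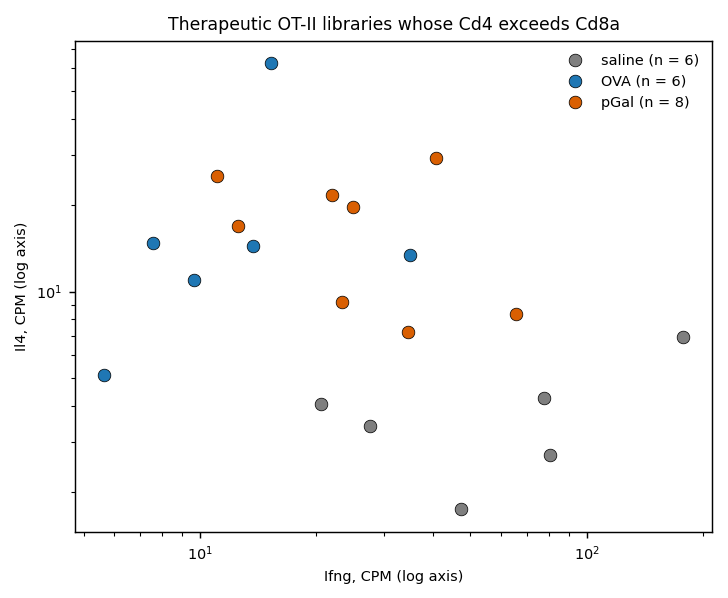
Ifng (horizontal) and Il4 (vertical) in CPM on log axes in the matching therapeutic OT-II libraries: 6 saline, 6 OVA and 8 pGal. Saline libraries lie at 6.95 CPM of Il4 or less, and OVA libraries lie at 34.9 CPM of Ifng or less.

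In therapeutic OT-I cells no member was called between treatments. Genes called were 0.686% for OVA against saline and 0% for pGal against saline, the latter with 952 genes at an unadjusted p under 0.05 and 20 called by DESeq2. Tnf was at 42.8 to 101 CPM (median 64.7) with saline, 8.38 to 49.4 CPM (median 37) with OVA and 9.2 to 61.8 CPM (median 44.9) with pGal. All 8 OVA and all 8 pGal libraries were below the saline mean. The log2 value for OVA was -0.96 (SE 0.338, adjusted p = 0.204) and for pGal -0.67 (SE 0.337, adjusted p = 0.786). Ifng was at 144 to 372 CPM (median 287) with saline, and differed by -0.88 (SE 0.344, adjusted p = 0.669) with pGal and -0.41 (SE 0.345, adjusted p = 0.675) with OVA. DESeq2 called 0 members in these comparisons, and 1 member in each had an unadjusted p under 0.05. For OVA against saline 1862 of 14581 genes were under that p. With all libraries as labelled, Tnf with OVA was -0.67 (adjusted p = 0.527) and Ifng with pGal -0.81 (adjusted p = 0.931).

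OVA and pGal were not told apart by any member in therapeutic cells either. In OT-I cells 0% of genes were called, with 418 at an unadjusted p under 0.05 and 4 by DESeq2, and no member was among the former. In OT-II cells 0% were called, with 1013 and 29. Ifng in OT-II cells differed by 1.02 (SE 0.474, adjusted p = 0.672), the only member with an unadjusted p under 0.05, and Il2 by -0.78 (SE 0.381, adjusted p = 0.672). Il4 differed by -0.21 (SE 0.456) and Il21 by -0.31 (SE 0.443). The libraries as labelled gave 0.3 (adjusted p = 0.877) for Ifng.

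**Figure D5:**
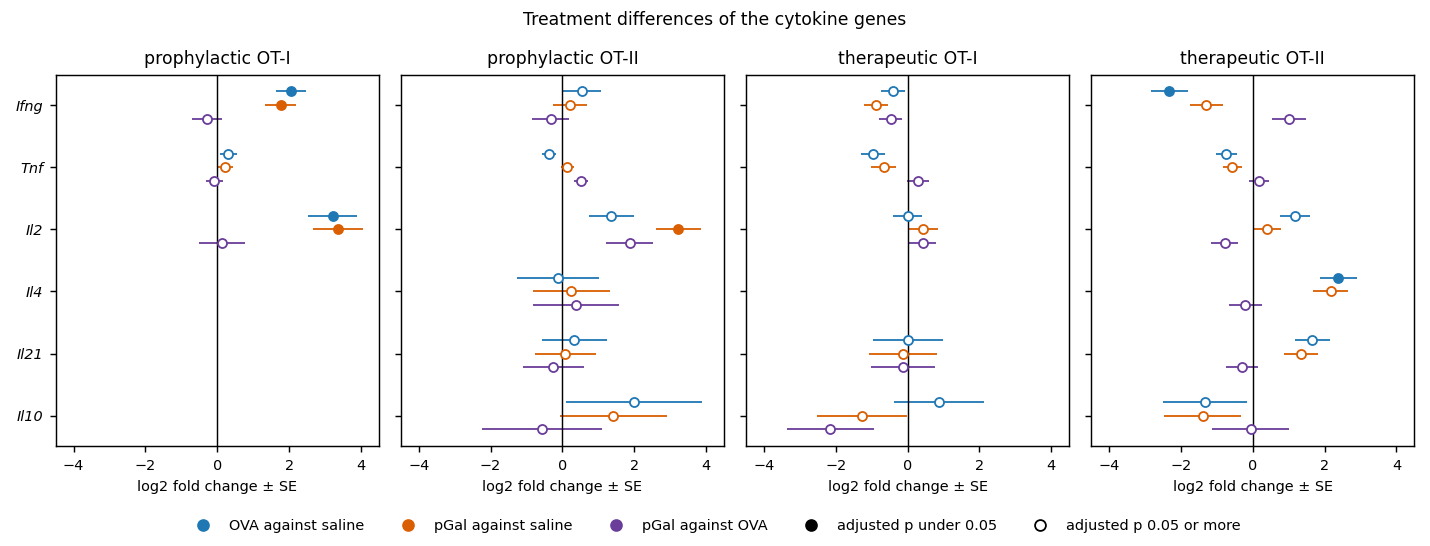
Log2 fold change (± SE) of each cytokine for the 3 treatment contrasts in the 4 combinations of experiment and cell type; filled points have an adjusted p under 0.05, and cytokines too low to be tested have no point. In therapeutic OT-II cells Ifng lies at -2.32 and Il4 at 2.38 for OVA against saline.

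Whether a treatment acted differently in the cell types was tested by the interaction. No member was called in any of the 6. In prophylactic cells genes were called at 0.505% for pGal against OVA, 1.17% for pGal against saline and 0.0337% for OVA against saline. An unadjusted p under 0.05 was found for 0, 1 and 2 members and for 1409, 1781 and 1083 of 14845 genes. Ifng there differed between cell types by -1.66 (SE 0.627, adjusted p = 0.257) in its response to pGal and by -1.63 (SE 0.656, adjusted p = 0.571) in its response to OVA. In therapeutic cells genes were called at 0%, 0% and 0.121% in the same order, with 753 and 648 genes at an unadjusted p under 0.05 in the first pair and 5 and 7 called by DESeq2. There 2, 0 and 2 members had an unadjusted p under 0.05, and for OVA against saline 1490 of 15747 genes did. The largest value of those members was that of Ifng in its response to OVA, at -1.96 (SE 0.646, adjusted p = 0.282). DESeq2 called 0 members in all 6, and with all libraries as labelled no member was called in the therapeutic ones. The responses of OT-I and OT-II cells are therefore not shown to differ for any of the cytokines, whatever was called in either.

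Il10 was low in all groups and was called nowhere. It had 0 counts in 11 of 15 prophylactic OT-I and 5 of 14 prophylactic OT-II libraries, and in 6 of 22 and 3 of 20 therapeutic ones. Its highest values were 4.34 CPM in the therapeutic OT-II library saline 7 and 3.44 CPM in the therapeutic OT-I library OVA 4. In prophylactic cells the highest, at 0.925 CPM, was in the batch 2 OT-II OVA library with Cd79a at 1330 CPM, and the next, at 0.515 CPM, in a batch 2 OT-I saline library with Cd79a at 316 CPM. B cells and myeloid cells also make Il10, and their part in these values was not tested. Its SEs on the log2 scale were 1.07 to 2 in the comparisons of treatments and cell types, so only large differences could have passed.

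Genes around the cytokines were read from fixed lists: 11 receptors of the members, 25 other T cell cytokines, 26 transcription factors of cytokine genes, 9 regulators of cytokine mRNA and 17 genes that respond to the members. In prophylactic OT-I cells with OVA against saline, 2 of 11 receptors, 3 of 19 tested cytokines and 4 of 26 factors rose and none of these fell. Of all genes 5.39% were called there, and most of these rose as well, so the direction is not particular to these lists. Il2rb, the receptor subunit for interleukins 2 and 15, rose from 560 to 1180 CPM (log2 1.09, SE 0.18, adjusted p = 0.00273), and Il10ra from 54 to 123 CPM. Tbx21, the factor that drives Ifng, rose from 51.5 to 200 CPM (log2 2.04, SE 0.271, adjusted p = 0.000793), beside Eomes, Batf and Nfatc1. The chemokine Ccl5 rose from 83.9 to 265 CPM (log2 1.67, adjusted p = 0.00692). With pGal against saline, where 3.35% of all genes were called, 1 receptor, 1 cytokine (Tnfsf11) and 2 factors rose. Tbx21 stood at 151 CPM (log2 1.42, adjusted p = 0.0152) and Il2rb at 1020 CPM (log2 0.82, adjusted p = 0.0251). Of the response genes Traf1 rose with OVA (log2 0.44, adjusted p = 0.037) and with pGal (0.48, adjusted p = 0.0333). Gbp2 fell with OVA (-0.33, adjusted p = 0.0401). Over the 15 fits without a library, the Traf1 call was lost in 8 with OVA and 6 with pGal, and Gbp2 in 8. With OVA Nfatc1 was lost in 7, Eomes in 4 and Il10ra in 1, while Tbx21, Il2rb, Batf and Ccl5 remained called in each. With pGal Tnfsf11 was lost in 7, Il2rb in 4 and Tbx21 in 1. Medians of the 5 lists lay between -0.25 and 0.16, against 0 for all genes. Without the Cd79a-rich libraries the counts were 2 receptors, 1 cytokine and 4 factors higher for OVA, and 0, 0 and 2 for pGal.

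In prophylactic OT-II cells with pGal against saline, 8 of 26 factors rose and 2 fell, with a median log2 of 0.41 against 0.04 for all genes. Of all genes 11.7% were called there, 900 higher and 755 lower. Irf4, induced by the antigen receptor, rose by 1.9, Maf, a factor for Il4, Il10 and Il21, by 1.7 and Eomes by 1.79, while Prdm1 fell by 2.14. Il2rb rose from 83.5 to 440 CPM (log2 2.38, SE 0.191, adjusted p = 1.04e-05), while Ifngr2, Il4ra and Il21r fell, which makes 1 receptor higher and 3 lower. Of 19 other cytokines 5 rose and 1 fell, among the former Tnfsf11 from 13.3 to 59 CPM and Ebi3 from 1.53 to 10.9 CPM. Of 17 response genes 5 fell and 1 rose, and the falling ones included Socs3 (log2 -1.41), Socs1 (-0.94), Gbp2 (-0.8) and Irf1 (-0.69). Of 9 mRNA regulators Zc3h12d rose (log2 1.31). Summed B cell markers were 36.6 to 3250 CPM in the pGal libraries and 46.1 to 677 CPM in the saline libraries, and without the Cd79a-rich libraries 11 factors rose and 3 fell, and 7 response genes fell.

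With pGal against OVA in the same OT-II cells, where 1.87% of all genes were called, Tnfsf11 rose from 16.3 to 59 CPM (log2 1.86). Il2rb rose from 238 to 440 CPM (log2 0.99), while Il4ra fell from 497 to 313 CPM (log2 -0.66). Nfatc1, an NFAT factor, rose from 423 to 628 CPM (log2 0.58, adjusted p = 0.0195) and Maf by 1.25 (adjusted p = 0.0447). That makes 2 of 26 factors higher and none lower. Zc3h12d rose and Gbp2 fell. Over the 14 fits without a library, Maf was lost in 10, Gbp2 in 8, Nfatc1, Il2rb and Zc3h12d in 6 each, and Il4ra in 3. Tnfsf11 remained called in each. With OVA against saline, Il2rb (log2 1.39, adjusted p = 0.0145) and Eomes (log2 1.99) rose, and none of the other genes of the 5 lists was called. Of all genes 0.163% were called there. Over the 14 fits without a library, the Eomes call was lost in 9 and the Il2rb call in 3. Eomes is also among the NK cell markers used here. In this comparison the medians of the markers were 2.41 for B cells, 1.99 for NK cells and 1.43 for myeloid cells, against 0.01 for all genes. Batch 2 OVA 2 had summed B cell markers of 6170 CPM and defining NK genes of 175 CPM. Without the Cd79a-rich libraries Eomes was 1.85 (adjusted p = 0.0737) and Il2rb 1.14 (adjusted p = 0.0196).

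In therapeutic OT-II cells with OVA against saline, the called genes on these lists mostly fell. Of all genes 1.54% were called there, and most of these fell as well, with 132 lower and 87 higher. Of 20 other cytokines 3 fell and none rose: Ccl5 from 65.2 to 7.97 CPM (log2 -3.05, adjusted p = 0.047), a mean carried by saline 7, Lta from 61.9 to 27.8 CPM (log2 -1.15) and Osm (log2 -0.93). Their list had a median of -0.65 against -0.07 for all genes. Of 17 response genes 4 fell: Cish, a target of interleukin 2 signalling, from 74.5 to 13 CPM (log2 -2.52, SE 0.416, adjusted p = 0.00381), Socs1 (-0.96), and the NF-kappaB genes Relb (-0.88) and Nfkb2 (-0.75). Il2ra, the high-affinity interleukin 2 receptor subunit, fell from 34 to 7.05 CPM (log2 -2.27, adjusted p = 0.0412). Nfatc2 rose from 84.5 to 152 CPM (log2 0.85). Without saline 7 Ccl5 was at -1.24 (adjusted p = 0.322), and 1 cytokine, 0 receptors and 3 response genes fell. Of these 9 genes Lta, Cish and Nfatc2 remained called in each of the 20 fits without a library, and Il2ra was lost in 11 of them, Ccl5 in 11 and Relb in 16. With all libraries as labelled 2 response genes were called, Socs1 at -1.03 (adjusted p = 0.0316) and Nfkb2 at -0.63 (adjusted p = 0.039), and Cish was at -1.74 (adjusted p = 0.0654). With pGal no gene of these lists was called against saline or OVA. In therapeutic OT-I cells with OVA against saline, 0.686% of all genes were called, 39 higher and 61 lower. Cd40lg fell from 23.6 to 5.67 CPM (log2 -2.09, SE 0.27, adjusted p = 0.000534), Cish fell from 75.2 to 31.3 CPM (log2 -1.29) and Eomes rose (log2 0.62). The Eomes call was lost in 17 of 22 fits without a library, and as labelled Cd40lg was at -0.33 (adjusted p = 0.94) and Cish at -1.4 (adjusted p = 0.0953).

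Over the 71 libraries, after centring within experiment, batch and cell type, each member's pattern was set beside all genes with a mean of 1 CPM or more. Ifng was most like Rgs16 (Pearson r 0.72), Rgs1 (0.7) and Odc1 (0.67), and Tnf most like Dusp2 (0.75), Gadd45b (0.74) and Kdm6b (0.72). Il2 was most like Izumo1r, Gng2 and Gstp3, at 0.74 each. Il4 was most like Cebpa (0.66), Sbk2 (0.65) and Cela1 (0.64), Il21 most like Sostdc1 (0.6), Cebpa (0.59) and Sccpdh (0.59), and Il10 most like Ccl3 (0.62), Ccl4 (0.56) and Egr4 (0.54). Among the members the highest were Ifng with Tnf at 0.55 and Il4 with Il21 at 0.53, and Ifng with Il4 stood at -0.28. These values describe libraries that share treatment, depth and admixed cells.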

How the data were processed

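RNA was measured by SmartSeq v4 sequencing in 82 libraries. The authors deposited 3 tables of estimated counts per gene (expected counts, whole numbers), made with kallisto 0.46.1 on GRCm38 after bcl2fastq, per the submitters' processing notes. The summing of transcripts to genes is not stated there. Counts were filtered with filterByExpr, TMM-scaled and fitted with edgeR 4.0.16's robust quasi-likelihood test (R 4.3.3, limma 3.58.1 installed), prophylactic fits with a batch term. There were 6 fits and 24 comparisons. Adjusted p is Benjamini-Hochberg over all genes, CPM is TMM-scaled within an experiment, and SE is the log2 fold change divided by the root of F. Code was tested on simulated data.

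The members, lists and tests were chosen with earlier results of these data known. Named were all 6 members, up to 4 called genes per list and contrast by size at 1 CPM or more, Cd4 and Cd8a, and 3 most alike genes (log2(CPM + 0.5)). Therapeutic libraries whose higher coreceptor contradicted the label (11) were left out. A library is the replicate. Equal replicate numbers were not treated as pairs. Alternatives were DESeq2 1.42.0, RLE factors, no filter, a block on the number, single batches, libraries left out by Cd79a or the other coreceptor at 100 CPM, all libraries as labelled, and leaving out each library in turn (not between therapeutic cell types). With 21.2 to 68.2 M counts per library, low members are limited by counting.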

Additional observations from a re-analysis of the deposited data

Results flagged for a closer look

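A library was marked where it stood apart from the rest of its group, by its gap to the nearest other library relative to the group's whole range. Of 72 groups of a member, 18 had such a library, and chance alone marks about 1 in 20 groups of normally distributed values. CPM was used without a log scale, and values with a long upper tail are marked more often. The rate of 1 in 20 does not hold for low counts either: in the OT-I groups of prophylactic saline and OVA for Il10, and of prophylactic OVA for Il21, the other 4 libraries were at 0, so that any count is marked.

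Ifng stood apart at 34.9 CPM in therapeutic OT-II OVA 2. Tnf did so at 123 CPM in therapeutic OT-II OVA 7, at 134 CPM in pGal 10 and at 148 CPM in saline 7, and at 18.2 CPM in prophylactic OT-I batch 2 pGal 1. Il2 did so at 1.52 CPM in prophylactic OT-II batch 2 saline 2, the highest saline library for that gene.

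Il4 stood apart at 62.7 CPM in therapeutic OT-II OVA 7, the library without which the call for OVA against saline was lost. It also did so at 0.199 CPM in therapeutic OT-I pGal 4, at 0.264 CPM in prophylactic OT-I batch 1 pGal 2, whose Cd4 was 201 CPM, and at 1.27 CPM in prophylactic OT-II batch 2 OVA 2, whose Cd79a was 1330 CPM. Il21 stood apart at 0.0494 CPM in prophylactic OT-I batch 2 OVA 1 and at 2.76 CPM in prophylactic OT-II batch 1 saline 1.

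Il10 stood apart in 6 groups. The values were 3.44 CPM in therapeutic OT-I OVA 4 and 4.34 CPM in therapeutic OT-II saline 7. In prophylactic cells they were 0.925 CPM in OT-II batch 2 OVA 2, and, in OT-I cells, 0.515 CPM in batch 2 saline 1, 0.0615 CPM in batch 2 pGal 2 and 0.0574 CPM in batch 1 OVA 1.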

How the results depend on the processing

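No member changed direction past the threshold under any alternative that was run. Over settings other than leaving out a library, 837 values of a member stayed on the same side of the threshold, 35 lost a call and 9 gained it; leaving out each library in turn gave 2090, 17 and 5. Counts of members called moved as follows. For prophylactic OT-I pGal against saline (2 called) the count was 1 with DESeq2, where Il2 had no adjusted p, 1 with no filter, 1 without the libraries with the other coreceptor, 1 without the Cd79a-rich ones, and 0 in batch 1 and 0 in batch 2. OVA against saline in those cells (2) gave 0 in batch 2. In prophylactic OT-II cells pGal against OVA (0) gave 1 with DESeq2 and pGal against saline (1) gave 0 in batch 2. In therapeutic OT-II cells pGal against saline (0) gave 1 with DESeq2, and OVA against saline (2) gave 3 with DESeq2 and 0 as labelled. Between cell types, prophylactic OVA (2) gave 4 with DESeq2 and 0 in batch 2, pGal (4) gave 1 in batch 2, and saline (3) gave 0 in batch 2. The therapeutic comparisons of cell types (4, 3 and 3) each gave 0 as labelled. Leaving out a library gave 0 to 2 for prophylactic OT-I pGal against saline, 0 to 2 for therapeutic OT-II OVA against saline and 2 to 3 for prophylactic OVA between cell types. The cause was not tested, but batch 2 holds only 2 libraries per group.

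The replicate numbers were not taken as pairs, since same-numbered libraries did not all deviate together. Their median correlation was -0.19 to -0.01 in the fits of 1 cell type, where equal numbers link different treatments. It was 0.04 and 0.2 in the prophylactic and therapeutic fits of both cell types. In the therapeutic one 11 of 19 pairs were over 0.1, the highest at 0.69, and the median for other numbers was -0.02. A block on the number called 2530, 2998 and 1800 genes there under OVA, pGal and saline, against 1732, 1918 and 1418 without it. Whether OT-I and OT-II libraries of equal number shared a mouse is not settled by these values. With the number as a replicate block, prophylactic OT-I pGal against saline gave 1 member, therapeutic OT-II OVA against saline 1 and prophylactic saline between cell types 1. The block also called Tnf between cell types under prophylactic OVA (0.74, adjusted p = 0.0291), therapeutic OVA (1.07, adjusted p = 0.0166) and therapeutic pGal (0.82, adjusted p = 0.0286), which gave 3, 5 and 4 members.

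Over all genes, calls moved by over 1.5 times in many comparisons. Prophylactic OT-I pGal against saline gave 463, then 1153 with DESeq2, 242 with the block, 26 in batch 1, 273 without the libraries with the other coreceptor and 209 without the Cd79a-rich ones. OVA against saline gave 744, then 1356 with DESeq2, 494 with the block, 488 without the Cd79a-rich libraries and 19 in batch 2. Prophylactic OT-II pGal against OVA gave 264, then 914 with DESeq2, 49 with the block, 592 without the Cd79a-rich libraries and 0 in batch 2. Prophylactic OT-II pGal against saline gave 1655, then 2490 with DESeq2 and 0 in batch 2, and OVA against saline gave 23, then 146 with DESeq2 and 0 with the block or in either batch. Therapeutic OT-I OVA against saline gave 100, then 371 with DESeq2, 47 with no filter, 24 with the block and 26 as labelled. Therapeutic OT-II OVA against saline gave 219, then 714 with DESeq2, 127 with no filter, 65 with the block, 87 without the Cd79a-rich libraries and 69 as labelled. Its pGal against saline gave 1, then 169 with DESeq2, 14 with RLE factors, 2 with the block and 0 in the rest that moved. Between prophylactic cell types batch 2 gave 140 against 2063 under OVA, 447 against 2924 under pGal and 291 against 2691 under saline. Between therapeutic ones the labels gave 0 against 1732, 1918 and 1418, and the block gave 2998 under pGal. The interactions gave 75, 173 and 5 in prophylactic cells, and 252, 398 and 33 with DESeq2. In batch 1 the first gave 313, and without the Cd79a-rich libraries the first pair gave 230 and 356. In therapeutic cells OVA against saline gave 19, then 99 with DESeq2, 12 with RLE factors, 7 with no filter and 0 as labelled. Low counts limit Il4 and Il21 in OT-I cells, Il10 in prophylactic cells and Il2 in prophylactic OT-I saline libraries.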
